A study of Mus musculus with 6 samples.

Results

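Ifit1, Ifit2, Ifit3, Rsad2, Isg15, Isg20 and Irf7 are classical interferon-stimulated genes, and 7 of 7 were measured among the 22180 genes analysed. They were chosen by their measured behaviour, as classical interferon-stimulated genes that stayed flat, stood slightly higher or stood lower in myeloma cells cultured with neutrophils, and that choice had no numeric threshold. Their values in the neutrophil comparisons are therefore given as a description, without a test. The cells were DP42, a mouse line of multiple myeloma, a cancer of plasma cells. For 24 h they grew alone, beside mouse B cells (the control co-culture in the design text) or beside mouse neutrophils, which the labels also call IMC, with 2 arrays in each of the 3 groups. Flow cytometry separated the co-cultured populations before RNA was extracted. No label names a genotype, an agent, a sorting gate or the source of the partner cells, and DP42 is a single cell line. Whether both arrays of a group stem from different cultures is not labelled. A p-value here therefore reflects array-to-array spread alone, possibly technical.

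Type I interferons bind a receptor pair, IFNAR1 and IFNAR2, whose kinases JAK1 and TYK2 activate STAT proteins. With IRF9 these form the complex ISGF3, which binds the interferon-stimulated response element in the promoters of its target genes. IFIT proteins bind foreign RNA and restrain its translation, RSAD2 (viperin) makes an antiviral nucleotide, ISG15 is a ubiquitin-like modifier, ISG20 is an exonuclease, and IRF7 drives further interferon transcription.

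Promoter letters are shown for the 4 of the 7 genes that held the core of this element, since it is a feature of sequence that their choice did not use. The motif searched was GAAA, any 2 bases, and GAAA again, on both strands, in RefSeq windows of GRCm38.p6 from 250 bases before to 50 bases after each annotated start. It was found in 3.99% of 27025 genes with a window, in 4 of the 7 genes, and in 17 of 47 other interferon-stimulated genes with a window (36.2%). Capitals mark the matches. Each stretch is written 5′ to 3′ on the strand of its gene.
Ifit1 (chr19:34640765-34640833, plus strand): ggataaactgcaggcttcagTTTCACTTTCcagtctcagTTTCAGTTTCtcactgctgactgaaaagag
Ifit3 (chr19:34583353-34583436, plus strand): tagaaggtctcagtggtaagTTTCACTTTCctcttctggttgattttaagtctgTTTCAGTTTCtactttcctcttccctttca
Rsad2 (chr12:26456543-26456592, minus strand): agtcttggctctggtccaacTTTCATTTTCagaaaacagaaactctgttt
Isg15 (chr4:156200855-156200916, minus strand): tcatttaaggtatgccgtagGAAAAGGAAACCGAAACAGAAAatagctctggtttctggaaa
Ifit1 and Ifit3 held 2 matches each, Rsad2 held 1, and Isg15 held 3 that overlap one another. The Ifit3 stretch was identical at 84 of 84 bases to one in the promoter of Ifit3b, a gene of the same cluster. No match lay in the windows of Ifit2 (2 windows), Isg20 (3 windows) or Irf7 (1 window), which says only that these letters are not in those windows. Cmpk2, a neighbour of Rsad2 that did rise, had no match in its window either. Of the 14 other interferon-stimulated genes that rose against culture alone, 7 had a window and 1 of those held a match. The promoter reference held no window for Oas2, Ifi27, Usp18, Mx1, Oas1b, Dhx58 and Parp14, so these were not searched. They include the genes that rose most, and the share among rising genes is therefore not compared with that of the 7.

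The deposited values were log2 expression values per probe set from RMA, a method that corrects background, normalises arrays to one another and summarises probes. Array medians ran from 7.09 to 7.22 and lower quartiles from 5.96 to 6.15. Each of the 7 genes had 1 probe set. The probe sets of Ifit3 and Isg20 lay above the median of all 6 arrays, and those of Ifit1, Ifit2, Rsad2, Isg15 and Irf7 lay between the lower quartile and the median of all 6, a dim range for which no detection call was at hand. Plasma cell regulators did not pass in any comparison, with Irf4 at 10.79 ± 0.07 alone and 10.92 ± 0.08 with neutrophils, and Xbp1 at 10.03 ± 0.06 and 10.17 ± 0.01 (log2, mean ± SD, n = 2). Of the other plasma cell markers, Prdm1 (6.74), Tnfrsf17 (6.03) and Jchain (5.41) lay below the array median in culture alone. Sdc1 (8.49), Tnfrsf13b (8.01), Slamf7 (11.96) and Mzb1 (12.13) lay above it. Neutrophil transcripts stood higher in the neutrophil co-culture: the mean of 20 neutrophil markers was 6.53 and 6.60 alone, 6.57 and 6.68 beside B cells, and 6.93 and 6.97 beside neutrophils. Of the 20, 5 passed against culture alone, with 2 negative, and 1 (Ngp) against B cells, with 4 negative. Ngp, a granule protein gene, read 7.27 and 7.70 with neutrophils, 5.93 and 6.11 with B cells, and 5.57 and 5.76 alone. Its adjusted p in limma was 0.00498 against culture alone and 0.0220 against B cells. Ly6g, a defining surface marker, stood at 5.98 and 5.76 with neutrophils, 5.30 and 5.39 with B cells, and 5.597 and 5.74 alone, and did not pass. Mature B cell markers did not pass, with Ms4a1 at 6.33 ± 0.00 alone and 6.33 ± 0.28 with B cells. Cr2 (6.79) and Fcer2a (5.81) were also dim in culture alone. Cd79a (12.15), Cd79b (12.50), Pax5 (10.98), Cd22 (10.98), Cd37 (10.66) and Fcmr (8.33) were bright there. Carried B cells cannot be read from genes that were already bright in culture alone. Of 11 monocyte and macrophage markers, 4 were positive and 7 negative against culture alone, and Ly6c2 alone passed. It read 7.14 and 7.12 with neutrophils, 5.53 and 5.70 with B cells, and 5.71 and 5.75 alone. Its adjusted p in limma was 0.00226 against culture alone and 0.00346 against B cells. None of 8 dendritic cell markers passed. The part of carried cells in the values below was not tested, and in sorted bulk RNA fewer cells of a type and less RNA per cell cannot be told apart. The B-cell arrays differed from each other. Over all genes B-cell replicate 1 correlated at 0.9963 with neutrophil replicate 1 but at 0.9924 with B-cell replicate 2. B-cell replicate 2 had the lowest correlations of all pairs, 0.9872 and 0.984 with the neutrophil arrays. Values against B cells are therefore also given without each B-cell array. The mean of 1394 olfactory and vomeronasal receptor genes, which a myeloma line is not known for expressing, also differed between arrays: 5.56 and 5.51 alone, 5.27 and 5.59 beside B cells, and 5.13 and 5.05 beside neutrophils (the receptor mean). It was lower in both neutrophil arrays than in every other array, so it cannot be fully separated from culture group. Within groups it varied mostly between the B-cell arrays, which largely set its slope as a covariate. Differences fitted with it are therefore a description.

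Ifit1, Ifit2 and Ifit3 lie together on chromosome 19. Ifit1 (probe set 17358832), whose protein recognises the 5′ end of foreign RNA, read 7.17 and 7.15 in cells cultured alone, 7.01 and 6.97 beside B cells, and 6.83 and 6.999 beside neutrophils. Both co-cultures lay below culture alone, and the 2 co-cultures overlapped. The difference on the log2 scale was -0.25 ± 0.10 (SE) for neutrophils minus alone, or 0.843-fold, and -0.08 ± 0.10 for neutrophils minus B cells. The latter turned to 0.01 without neutrophil replicate 1 and to 0.02 with quantile normalisation.

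Ifit2 (17358815), whose protein pairs with other IFIT proteins, read 6.73 and 6.66 alone, 6.61 and 6.29 beside B cells, and 6.83 and 6.83 beside neutrophils. The order was neutrophils, alone, B cells, with no overlap between neighbouring groups. Its difference was 0.13 ± 0.12 against culture alone and 0.38 ± 0.12, or 1.30-fold, against B cells. Much of the latter lay in B-cell replicate 2: the difference was 0.54 without B-cell replicate 1 and 0.22 without B-cell replicate 2. Once the receptor mean was a covariate, it was -0.28 against culture alone and 0.068 against B cells.

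Ifit3 (17358821) read 7.81 and 7.82 alone, 7.68 and 8.25 beside B cells, and 7.66 and 7.21 beside neutrophils. Both neutrophil arrays lay below every other array, neutrophil replicate 1 just under B-cell replicate 1. This gene had the widest span of the 7 over the 6 arrays, 1.03 on the log2 scale against a median of 0.33 for all genes. The difference was -0.38 ± 0.20 against culture alone, or 0.770-fold, and -0.53 ± 0.20 against B cells, or 0.693-fold. The latter was -0.81 without B-cell replicate 1 and -0.25 without B-cell replicate 2. Ifit3 correlated with the receptor mean at r = 0.84 over the 6 arrays, a description over arrays that share their normalisation, and 15.9% of all genes had an r over 0.8. Once the receptor mean was a covariate, its differences turned to 0.51 against culture alone and 0.15 against B cells.

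Ifit3b, Ifit1bl1 and Ifit1bl2 were the other IFIT genes measured. Ifit3b, a near copy of Ifit3, stood at 4.26 ± 0.19 alone, 4.65 ± 0.28 with B cells and 4.06 ± 0.07 with neutrophils. Ifit1bl2 stood at 6.77 ± 0.03, 6.92 ± 0.34 and 6.65 ± 0.05, and Ifit1bl1 at 4.90 ± 0.36, 4.92 ± 0.14 and 4.80 ± 0.05. None of these 3 passed in any comparison (limma, adjusted p from 0.147 to 0.9999), and the values of Ifit3 and Ifit3b are uncertain where probes cannot separate such similar genes.

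**Figure D1:**
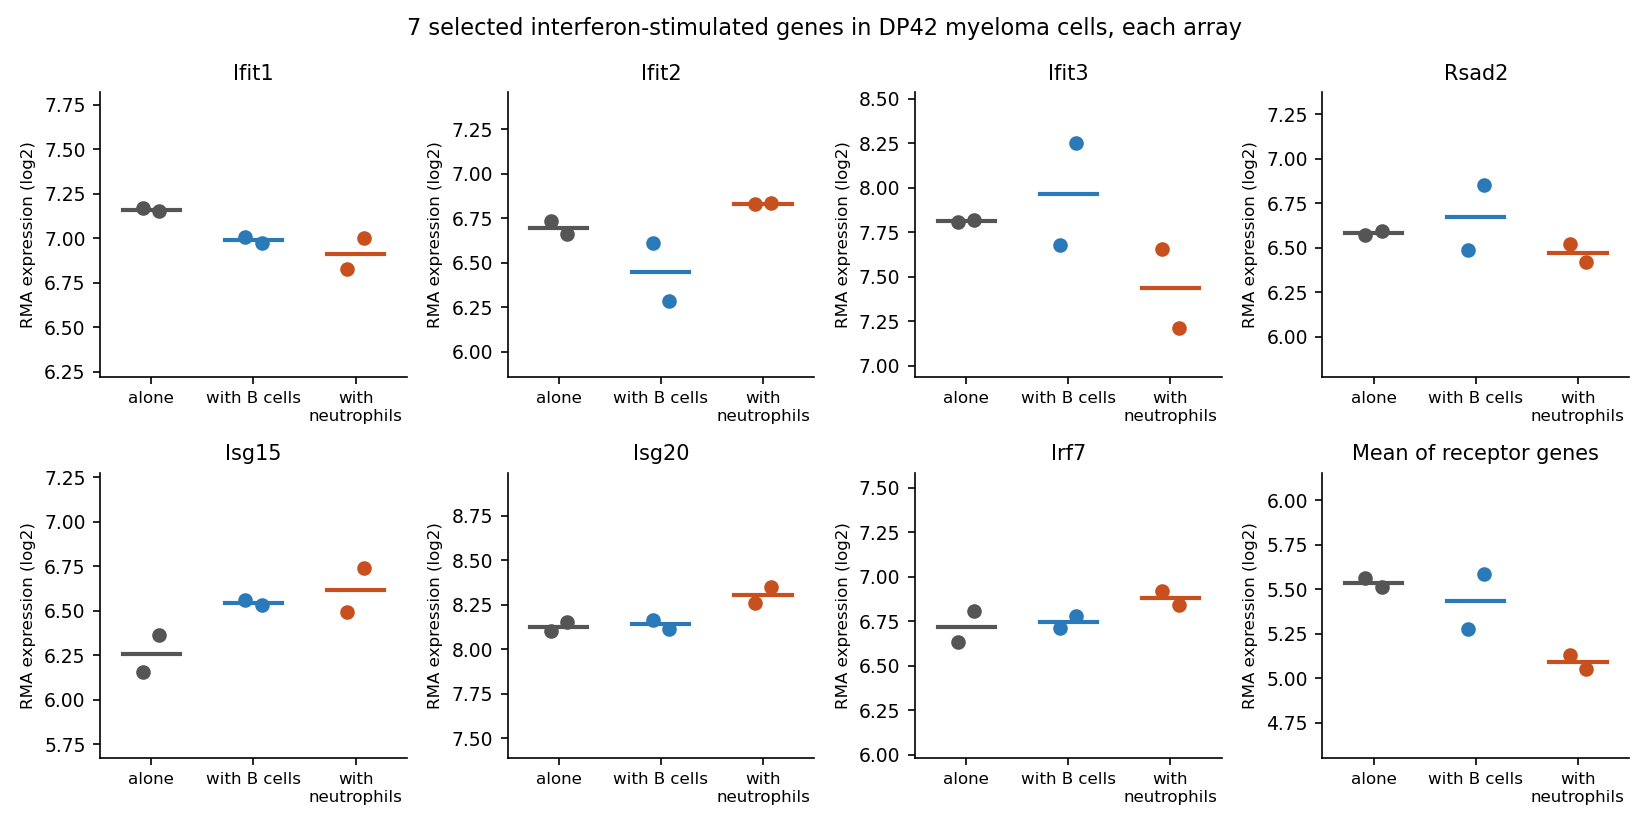
RMA expression on the log2 scale (vertical axes, each spanning 1.6 log2 units) of the 7 selected genes in each array, with the mean of the receptor genes in the last panel. Points are the 2 arrays of a group and lines their mean; Ifit3 and Rsad2 are highest in B-cell replicate 2 and lowest in neutrophil replicate 2, as Isg20 is highest with neutrophils.

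Rsad2 (17280327) on chromosome 12 read 6.57 and 6.60 alone, 6.49 and 6.85 beside B cells, and 6.52 and 6.42 beside neutrophils. Neutrophil arrays lay below those of culture alone by a small margin and overlapped those with B cells. The difference was -0.12 ± 0.13 against culture alone and -0.20 ± 0.13 against B cells, the latter -0.38 without B-cell replicate 1 and -0.02 without B-cell replicate 2. Rsad2 and Ifit3 varied together over the 6 arrays at r = 0.94, and Rsad2 correlated with the receptor mean at r = 0.77. With that mean as a covariate the differences turned to 0.39 and 0.18.

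The gene next to Rsad2 behaved otherwise. Cmpk2 (17274620), a mitochondrial nucleotide kinase whose product is the substrate of viperin, read 7.86 and 7.86 alone, 8.004 and 7.97 beside B cells, and 8.76 and 8.72 beside neutrophils. It rose 1.84-fold against culture alone (limma, difference 0.88 ± 0.09, adjusted p = 0.00944) and 1.68-fold against B cells (0.75 ± 0.09, adjusted p = 0.0471). No gene of the list of interferon-stimulated genes that holds Cmpk2, Usp18 and Irf9 passed against culture alone without either alone replicate. Against B cells none passed with quantile normalisation, or without B-cell replicate 2, neutrophil replicate 2 or either alone replicate, and none passed in either comparison once the receptor mean was a covariate. All neutrophil arrays lay above all others for Cmpk2, while none did for Rsad2. Whether Rsad2 and Cmpk2 differ from each other was not tested, since Rsad2 was chosen for its low difference.

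Isg15 (17434023) on chromosome 4 was the member of the set that stood highest against culture alone, and it stood nearly as high with B cells. It read 6.15 and 6.36 alone, 6.56 and 6.53 beside B cells, and 6.49 and 6.74 beside neutrophils. Both co-cultures lay above culture alone and overlapped each other. The difference was 0.36 ± 0.12, or 1.283-fold, for neutrophils minus alone and 0.07 ± 0.12 for neutrophils minus B cells. For B cells minus alone, a comparison that the choice of genes did not name though its arrays served as baselines, it was 0.29 ± 0.12, or 1.22-fold, and did not pass (limma, adjusted p = 0.9999, unadjusted p = 0.0405, higher in 2 of 2 arrays). Once the receptor mean was a covariate, the difference from culture alone was 0.19. The difference from B cells turned to -0.06 with that covariate and to -0.05 without neutrophil replicate 2.

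Enzymes that attach ISG15 to proteins and remove it were read beside it. The activating enzyme Uba7 stood 0.29 ± 0.11 above culture alone, the conjugating enzyme Ube2l6 0.31 ± 0.11, the ligase Herc6 0.26 ± 0.09 and the ligase Trim25 0.29 ± 0.10, with adjusted p from 0.199 to 0.219 in limma. None of these 4 passed. Their neutrophil arrays stood above those of both other groups without overlap, as those of 35.6% of all genes did against culture alone and 30% against B cells. Usp18 (17462437), the protease that removes ISG15, read 7.33 and 7.47 alone, 7.58 and 7.45 beside B cells, and 8.42 and 8.45 beside neutrophils. It rose 2.05-fold against culture alone (1.03 ± 0.10, adjusted p = 0.00862) and 1.89-fold against B cells (0.92 ± 0.10, adjusted p = 0.0280).

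Isg20 (17479317) on chromosome 7 was the gene with the smallest span, 0.25. It read 8.10 and 8.15 alone, 8.16 and 8.11 beside B cells, and 8.26 and 8.35 beside neutrophils. Neutrophil arrays lay above the rest, and culture alone and B cells overlapped. The difference was 0.18 ± 0.09 against culture alone, or 1.13-fold, and 0.17 ± 0.09 against B cells, or 1.12-fold. These became 0.072 and 0.084 once the receptor mean was a covariate. Isg20 correlated with that mean at r = -0.93 over the 6 arrays, as Usp18 did at -0.93, Cmpk2 at -0.90 and Irf9 at -0.86. The related exonuclease genes stood close to it: Isg20l2 0.23 ± 0.10, Rexo4 0.14 ± 0.12 and its chromosomal neighbour Aen 0.07 ± 0.10 above culture alone, none of which passed (limma, adjusted p = 0.268, 0.531 and 0.672).

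Irf7 (17497813), also on chromosome 7, read 6.63 and 6.81 alone, 6.71 and 6.78 beside B cells, and 6.92 and 6.84 beside neutrophils. Both neutrophil arrays lay above the other 4 by a small margin, and culture alone and B cells overlapped. The difference was 0.16 ± 0.10 against culture alone, or 1.12-fold, and 0.13 ± 0.10 against B cells. The former was 0.075 without alone replicate 1 and 0.25 without alone replicate 2.

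Among 7 measured interferon regulatory factors, Irf9 alone passed. Irf9 (17300591), the DNA-binding subunit of ISGF3, read 8.19 and 8.15 alone, 8.19 and 8.25 beside B cells, and 9.15 and 9.12 beside neutrophils. It rose 1.95-fold against culture alone (limma, 0.96 ± 0.09, adjusted p = 0.00801) and 1.89-fold against B cells (0.92 ± 0.09, adjusted p = 0.0211). Irf1, Irf2, Irf3, Irf4 and Irf8 stood 0.094 to 0.15 above culture alone and did not pass. Genes at or above the median brightness, as these are, had a median of 0.109 in that comparison. Of 6 measured genes of the receptor and ISGF3, Irf9 was again the gene that passed, with Ifnar1 at 0.13 ± 0.11, Ifnar2 at 0.13 ± 0.10, Jak1 at 0.18 ± 0.09, Tyk2 at 0.15 ± 0.10 and Stat2 at 0.16 ± 0.10 against culture alone. None of 8 measured genes that activate IRF7, among them Tlr9, Myd88 and Tbk1, passed in either neutrophil comparison, at differences of 0.006 to 0.22 against culture alone (limma, 1 higher and 0 lower at an unadjusted p under 0.05). None of 19 measured interferon genes passed (limma, 1 higher and 3 lower at an unadjusted p under 0.05 against culture alone, 1 and 4 against B cells), and Ifnb1 read 5.51 and 5.76 alone, 5.77 and 5.81 beside B cells, and 5.59 and 5.59 beside neutrophils.

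**Figure D2:**
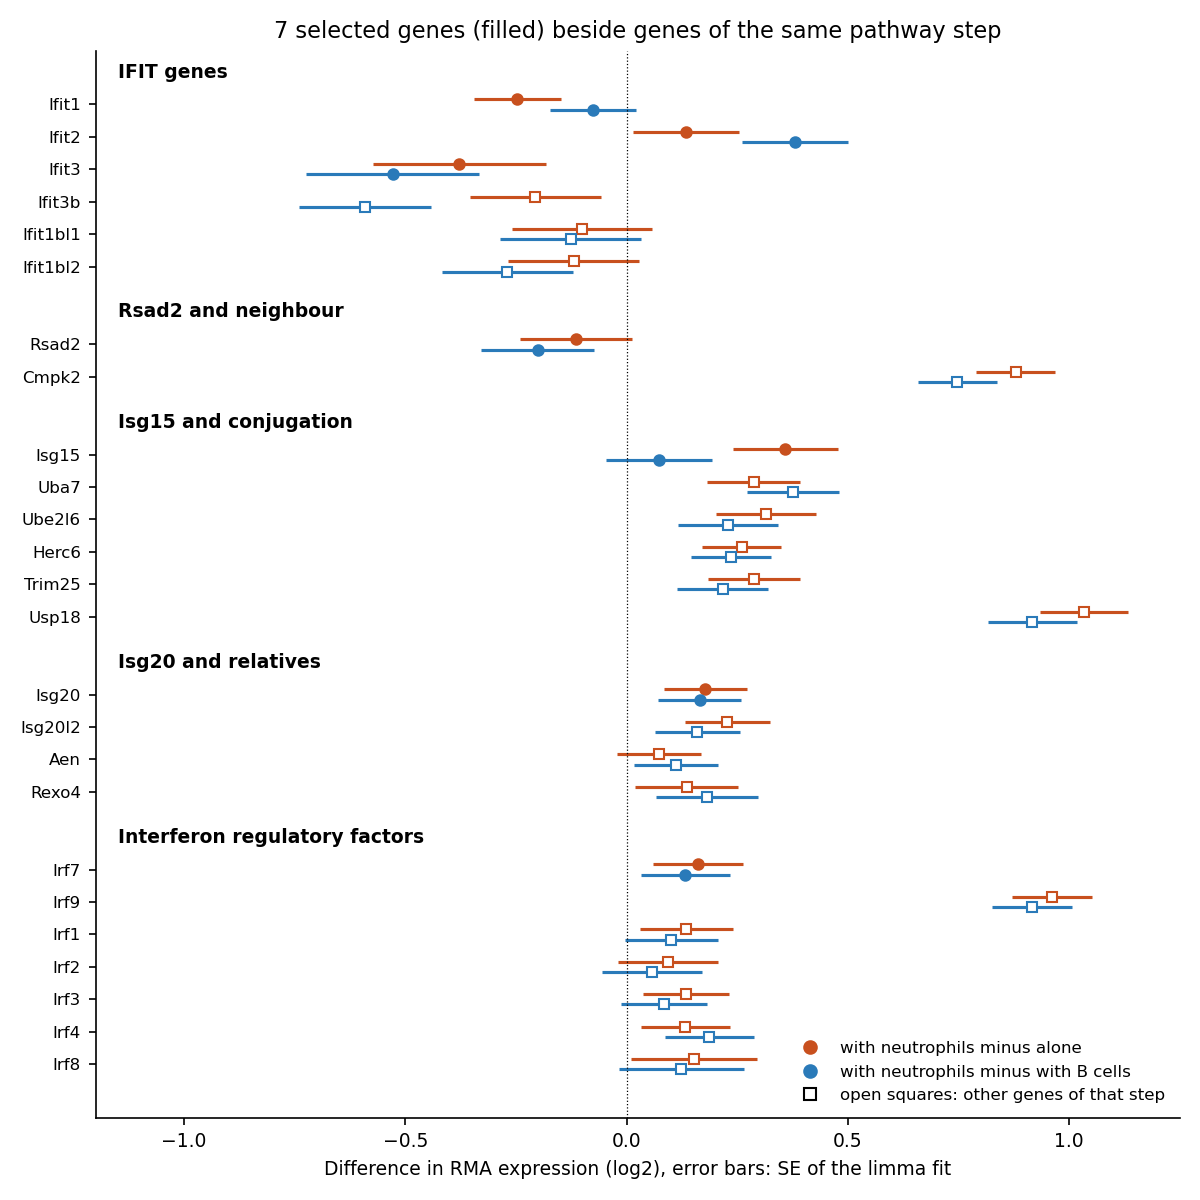
Differences in RMA expression (log2, horizontal axis) with the SE of the limma fit, for neutrophil co-culture minus alone (orange) and minus B-cell co-culture (blue). Filled circles are the 7 selected genes and open squares other genes of the same step; Cmpk2, Usp18 and Irf9 lie at 0.75 to 1.03, while the selected genes lie between -0.53 and 0.38.

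Of the 7 genes, 0 passed as higher and 0 as lower in either neutrophil comparison. Over all genes 0.131% rose and 1.36% fell against culture alone, and 0.0316% rose and 0.018% fell against B cells, in limma at an adjusted p under 0.05. The choice of genes rested on these comparisons, so the counts are a description. Neutrophil arrays did not overlap those of culture alone for any of the 7: 4 genes (Ifit2, Isg15, Isg20 and Irf7) stood above and 3 (Ifit1, Ifit3 and Rsad2) below, where 35.6% of all genes stood above and 27.4% below in this way. Against B cells 3 genes (Ifit2, Isg20 and Irf7) stood above and Ifit3 below without overlap, where 30% and 26.7% of all genes did. The median difference of the 7 was 0.13 against culture alone and 0.07 against B cells, beside 0.02 and 0.01 for all genes. Brighter genes stood higher: over the 11090 genes at or above the median brightness the medians were 0.109 and 0.131. Of the 7, 2 (Ifit3 and Isg20) lay in that brighter part. The 2 neutrophil comparisons share the neutrophil arrays.

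A list of 66 other interferon-stimulated genes gave the context, of which 60 were measured. Against culture alone 14 of the 60 rose and 0 fell, with a median difference of 0.28, and 52 were positive. Against B cells 5 rose and 0 fell, with a median of 0.26. At or above the median brightness lay 42 of the 60, with medians of 0.295 against culture alone and 0.347 against B cells. Over all 11090 genes in that brighter part the medians were 0.109 and 0.131. Oas2 and Ifi27 rose most, 2.38-fold and 2.29-fold against culture alone, and the rest of the 14 rose by 0.51 to 1.03 on the log2 scale, among them Xaf1 (0.75 ± 0.12), Oasl2 (0.67 ± 0.10), Mx1 (0.64 ± 0.11), Oasl1 (0.61 ± 0.10), the RNA sensor Ddx58 (0.59 ± 0.10), Parp14 (0.57 ± 0.11) and Helz2 (0.54 ± 0.10). The median against culture alone was 0.271 without alone replicate 1 and 0.266 without alone replicate 2. It was 0.263 without neutrophil replicate 1 and 0.267 without neutrophil replicate 2. Each of these fits leaves 1 array in a group, and fewer genes passed in each. Quantile normalisation took the 14 to 5, at a median of 0.186. The receptor mean, fitted as a covariate, took the 14 to 0 (13 higher and 1 lower at an unadjusted p under 0.05 in limma). The median was then 0.202. Against B cells the median was 0.307 without B-cell replicate 1 and 0.243 without B-cell replicate 2. It was 0.262 without neutrophil replicate 1 and 0.26 without neutrophil replicate 2. More genes passed without B-cell replicate 1, and fewer without any other array.

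The range of the 7 genes, which their choice helped to set, is given beside the other genes as a description. Against culture alone 40 of the 60 other genes lay within their range of -0.38 to 0.36, 19 above it and 1 below. Isg15 ranked 20 of 67 from the top, Isg20 39, Irf7 41, Ifit2 48, Rsad2 60, Ifit1 64 and Ifit3 66. Other genes of the list below 0 numbered 8 and included Plscr1, a phospholipid scramblase gene, at -0.39 ± 0.14, and the chemokine gene Ccl5 at -0.29 ± 0.12, both named after their values were seen and neither passing (limma, adjusted p = 0.199 and 0.247). Against B cells Ifit2 ranked 23 of 67 and Ifit3 last, with 38 of the 60 within the range of the 7 and 22 above it.

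**Figure D3:**
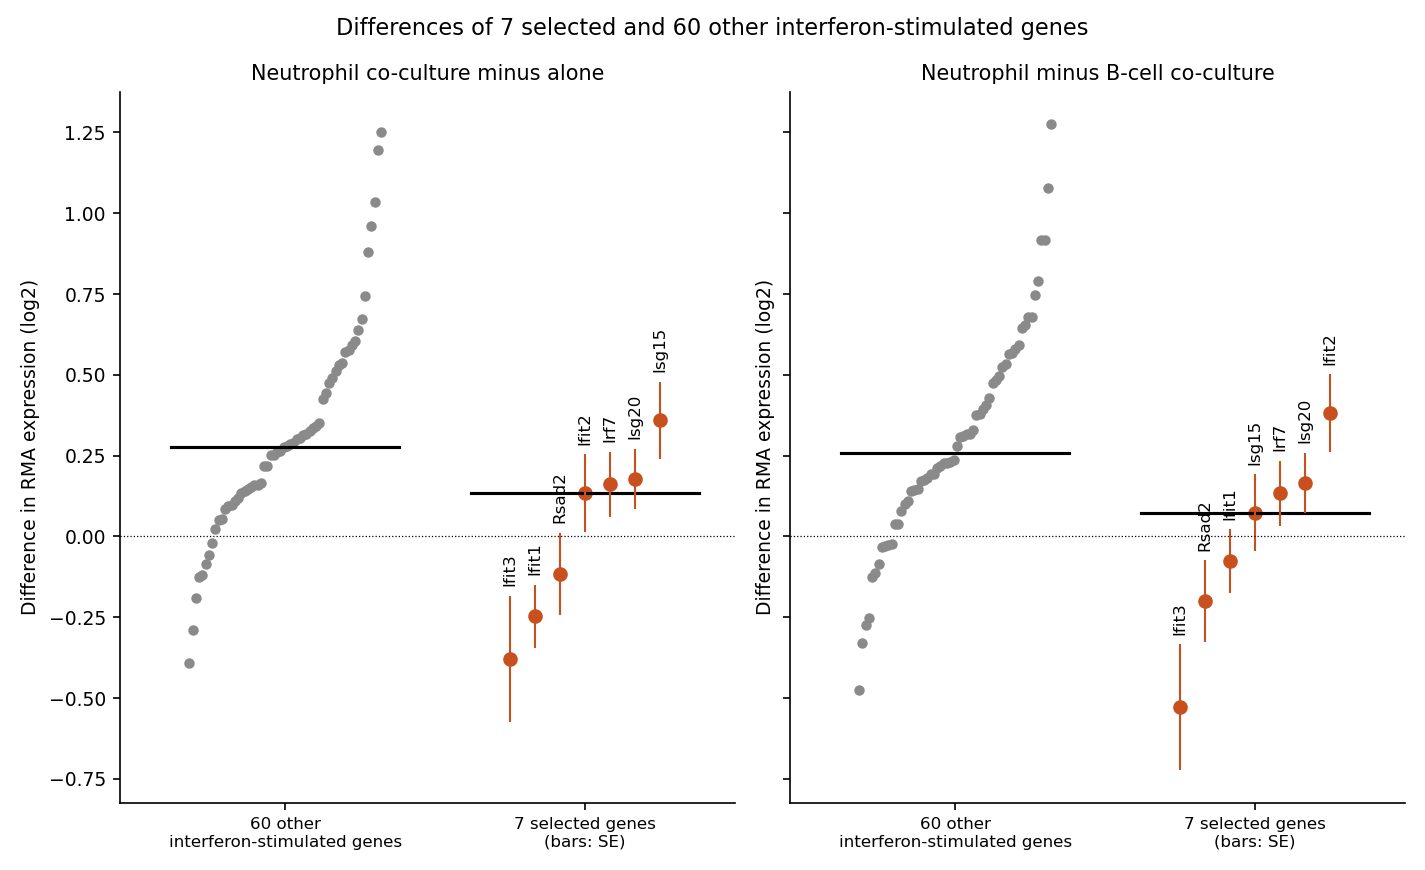
Differences in RMA expression (log2, vertical axis) of 60 other interferon-stimulated genes (grey points, ordered by size) and of the 7 selected genes (orange, bars are the SE of the limma fit), for each neutrophil comparison. Black lines are medians, 0.28 against 0.13 for neutrophils minus alone and 0.26 against 0.07 for neutrophils minus B cells. These medians are not matched for brightness: 42 of the 60 genes but 2 of the 7 lay at or above the median brightness. Most grey points lie within the range of the 7.

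In the B-cell co-culture 0 of the 7 genes passed against culture alone (limma, adjusted p = 0.9999 for each), with 1 higher and 0 lower at an unadjusted p under 0.05, Isg15. Over all genes 0% rose and 0% fell, with 358 higher and 511 lower at an unadjusted p under 0.05. The differences were 0.15 ± 0.20 for Ifit3, 0.09 ± 0.13 for Rsad2, 0.03 ± 0.10 for Irf7, 0.01 ± 0.09 for Isg20, -0.17 ± 0.10 for Ifit1 and -0.25 ± 0.12 for Ifit2. Ifit1 and Ifit2 lay below culture alone without overlap. For Ifit3 and Rsad2 the sign came from B-cell replicate 2, without which the differences were -0.13 and -0.095.

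Genes whose pattern over the 6 arrays was most like each of the 7 were sought among up to 2942 brighter genes that span at least 0.4 log2 units. Ifit3 was most like the olfactory receptor gene Olfr743 (r = 0.994) and Tcl1b1 (r = 0.992), and Rsad2 most like 1500009L16Rik (r = 0.990) and the interferon alpha gene Ifna15 (r = 0.982). Ifit2 was most like Sdc4 (r = 0.998) and Magt1 (r = 0.997), and Isg20 most like Glb1l (r = 0.996) and Rnf7 (r = 0.989). Ifit1 paired with 1700030N03Rik (r = 0.985) and 6030471H07Rik (r = 0.890), Isg15 with Gm9442 (r = 0.988) and Gm15728 (r = 0.976), and Irf7 with Slc16a8 (r = 0.945) and Rbm12b1 (r = 0.930). These are the highest of many correlations over 6 arrays that share their normalisation. Within the 7, Ifit2 opposed Rsad2 (r = -0.90) and Ifit3 (r = -0.85).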

How the data were processed

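Deposited values were log2 expression per probe set; the authors ran RMA, which the submitters' processing notes name (background subtraction, normalisation between arrays and summary per probe set). The log2 scale was read from the values; the array model, software version and genome build are not given in the sources used here. Such normalisation hides a change shared by most genes. The number of arrays limits the precision.

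Of 41345 probe sets, 23521 carried 1 gene in the platform annotation, 1814 several and 16010 none; only the first were used, and the brightest per gene was kept, giving 22180 genes. A model of 3 group means over the 6 arrays was fitted in R 4.3.3 by limma 3.58.1 (3 residual degrees of freedom, prior 5.55), with eBayes, two-sided, and Benjamini-Hochberg adjustment over all genes at 0.05. "Rose", "fell" and "passed" refer to that threshold, and ± SE to that fit.

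The 7 genes and all lists were chosen with earlier results of these data known. Genes named beside the 7 came from a written rule: small pathway lists in full, up to 12 changed genes of the list of 66, and the 2 most alike per gene. The fit was checked on simulated data. Plots used matplotlib 3.10.9.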

Additional observations from a re-analysis of the deposited data

How the results depend on the processing

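Of 186 recalculations of the 14 differences of the 7 genes in the neutrophil comparisons, 98 changed the value and the rest could not, by construction. The sign turned in 9 of the 98, in 7 of the 14 differences. Of the 9, 6 came with the receptor mean as a covariate, which cannot be fully separated from culture group. The count of genes changed against B cells, 11 (7 higher, 4 lower), became 1 with quantile normalisation, 62 with arrays centred on their medians (18 higher, 44 lower), 91 in the brighter part of the genes (41 higher, 50 lower), 33 with trend and robust eBayes, 1 with only the 4 arrays compared and 0 once the receptor mean was a covariate (428 higher and 349 lower at an unadjusted p under 0.05), and ran from 1 to 5453 when an array was left out, the highest without B-cell replicate 1. The count against culture alone, 331 (29 higher, 302 lower), became 22 (7 higher, 15 lower), 555 (58 higher, 497 lower), 90 (21 higher, 69 lower), 353, 1338 (222 higher, 1116 lower) and 0 under the same settings, and 5 to 1338 without an array. For the list of 66 against B cells, 5 became 0, 10, 14, 8, 0 and 0, and 0 to 30 without an array. Against culture alone, 14 became 5 after quantile normalisation and 0 given the receptor mean, and 0 to 19 without an array. The count for B cells minus alone, 0, became 1 among brighter genes and 1 with trend and robust eBayes. The causes were not tested. No label pairs same-numbered replicates, and their deviations from group means correlated at -0.15 to 0.065. Whether they shared a culture day or an array run was not tested. With the replicate block the counts were 9, 373 and 0, and 3 and 12 for the list. Having 2 arrays per group limits all values, and dim signal those of Ifit1, Ifit2, Rsad2, Isg15 and Irf7.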
